A study of Homo sapiens with 8 samples.

Results

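The mRNAs described here are 8 transcripts that earlier work names as targets of IGF2BP1, through the zipcode, the coding region determinant or sites in the 3′UTR. They are ACTB, MYC, BTRC, MKI67, SRF, E2F1, BCL2 and GLI1, out of 20046 protein-coding genes in GENCODE release 44. An eCLIP peak was counted when it lay within the gene on its own strand, which held for 14 of the 22311 peaks in the DMSO list and for 11 of the 22123 peaks in the AVJ16 list. Peaks were found in 5 of the 8 genes in each list, and E2F1, BCL2 and GLI1 had none in either.

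In eCLIP, RNA crosslinked by UV light to an immunoprecipitated (IP) protein is sequenced next to a size-matched input (SMInput) library, for which no antibody is used. H1299, an established line of human non-small cell lung cancer, labelled WT and epithelial-like, was exposed for 24 h to 1.5 µM AVJ16, described by the study as an inhibitor of IGF2BP1, or to 0.01% DMSO, and was then irradiated at 254 nm with 400 mJ/cm2. Each treatment had 2 IP and 2 SMInput libraries, 8 in all, and the labels say that the samples were made in 2 batches from one thaw of cells. The authors deposited 1 list of peaks per treatment with both replicates combined, so every value below is a single number without an error, no test between treatments is possible, and batches cannot be traced.

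IGF2BP1 is an oncofetal RNA-binding protein with RRM and KH domains that holds its target mRNAs in cytoplasmic granules and affects their stability, transport and translation. It was first recognised through its binding to a pair of mRNAs. One encodes β-actin, where a zipcode just after the stop codon directs the mRNA to the cell edge, and another encodes MYC, where a determinant at the end of the coding region protects the mRNA from decay. Later work added mRNAs of cell cycle and survival genes, for many of which the protein is thought to act through the 3′UTR and to counter microRNAs.

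Each peak carries a log2 fold enrichment of IP over input, which begins at 3 in both lists, and a −log10 p of that enrichment. The Methods word the threshold as a fold enrichment and not as a log2 value, whereas the study's Results give it as a log2 value above 3. The log2 scale used here is also that of the heading in the authors' peak table. The −log10 p values end at 400, which 677 DMSO and 799 AVJ16 peaks share. The next highest value is 161 in the DMSO list and 190 in the AVJ16 list, so 400 was read as a p-value too small to be given and not as a point on the same scale. A gene or site without a peak may have bound RNA below these thresholds. The lists hold no read counts, so depth is unknown, and a weakly expressed mRNA cannot be told apart from an unbound one. The labelled cell line could not be checked by marker genes, since the lists hold no expression.

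The sites that carry the results are shown as RNA from the GRCh38 genome, 5′ to 3′. For ACTB it is the pair of elements that KH domains 3 and 4 are known to contact, and for BTRC and MKI67 it is the middle of the most enriched peak in each list, and for SRF that of the AVJ16 peak, up to 30 nt, to show how unlike these sites are in sequence. For MKI67 and SRF, 1 further peak that is discussed below was added, for SRF with its downstream end, which holds GGACU. Capitals mark CGGAC and the downstream ACAC in the zipcode site, the element CAUH (CAU, then any base but G) in MKI67 and GGACU in SRF.
ACTB zipcode, chr7:5527721-5527746, minus strand: CGGACuaugacuuaguugcguuACAC
BTRC, DMSO, chr10:101553265-101553294, plus strand: ugagacuccuguugggacacaguuggucug
BTRC, AVJ16, chr10:101553166-101553191, plus strand: guugcgguauuuaacguaucugccaa
MKI67, DMSO, chr10:128097071-128097100, minus strand: gugggaucuggucccccagccucucuuggg
MKI67, AVJ16, chr10:128097041-128097070, minus strand: cuuucuuacacuaacucuguaccuacCAUC
MKI67, peak with the largest difference, chr10:128097923-128097952, minus strand: uccccagugucuggcggggagccaggugac
SRF, AVJ16, chr6:43179543-43179572, plus strand: ugggcaccguguccuccucugaggaagcag
SRF, upstream peak, DMSO, chr6:43179309-43179338, plus strand: cgggcagccacaGGACUgagcccucucacu

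All 14 DMSO peaks and all 11 AVJ16 peaks of these mRNAs lay in the 3′UTR, where 74.5% and 74.9% of all peaks of the lists lie. With 5 of 8 genes bound, the share was above that of all protein-coding genes, of which 25.8% had a peak with DMSO, 23.2% with AVJ16 and 20.4% in both lists. The related groups compared below hold 88 genes, 16 of them also named as targets by earlier studies. Of these 88, 55 were bound with DMSO, 52 with AVJ16 and 50 in both lists, so a share this high was not particular to the 8 genes. The genes were chosen because binding was known, so these shares stand only as a description. No peak lay on the opposite strand of these genes, and none overlapped a further gene on the same strand. Their median log2 fold enrichment was 3.69 in either list, next to 3.63 (DMSO) and 3.61 (AVJ16) over all peaks. By enrichment these peaks were thus close to the middle of the lists.

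**Figure D1:**
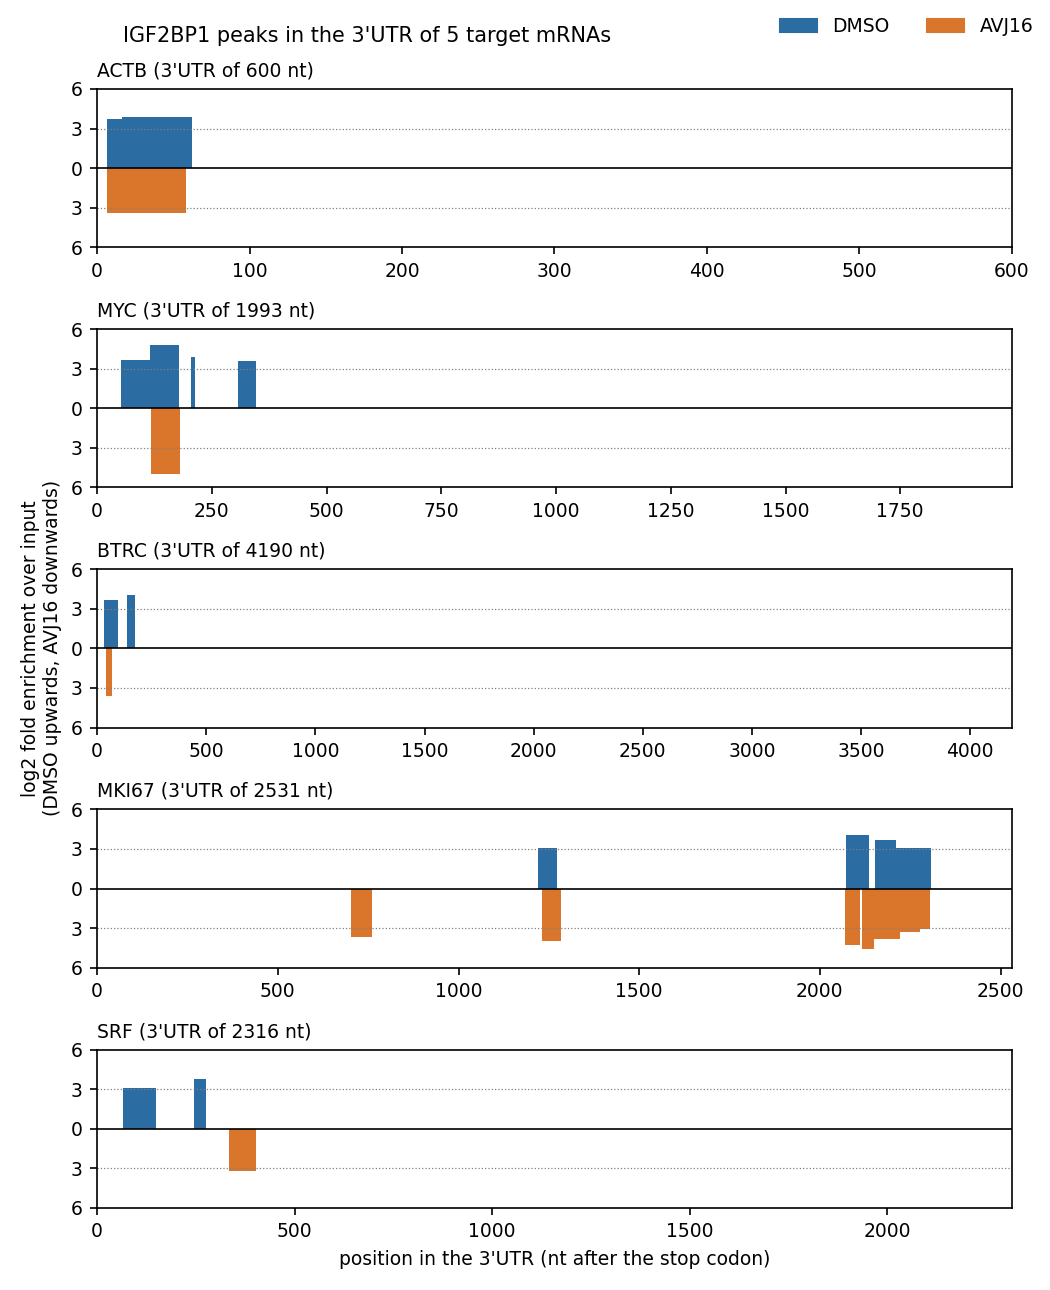
Peaks in the 3′UTR of the 5 bound mRNAs, with nt after the stop codon on the x axis and the log2 fold enrichment of IP over input on the y axis (DMSO upwards in blue, AVJ16 downwards in orange, dotted lines at 3, where the lists begin). ACTB, MYC and BTRC peaks stand near the stop codon in both lists, MKI67 peaks gather near the far end, and the SRF peaks of the lists do not overlap.

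ACTB encodes β-actin, the cytoplasmic actin of the cell cortex and lamellipodia. In the DMSO list 2 adjoining peaks covered nt 7 to 62 after the stop codon. The longer, chr7:5527686-5527731, had a log2 fold enrichment of 3.91, and the shorter, chr7:5527732-5527741, had 3.69. In the AVJ16 list, 1 peak at chr7:5527690-5527741 covered nt 7 to 58, and its log2 fold enrichment was 3.37. The binding sites of both lists thus shared one edge and nearly the other, and the rest of the 600 nt 3′UTR and the coding sequence had no peak. The zipcode, taken as the first 54 nt of the 3′UTR (chr7:5527694-5527747), had 48 nt, or 88.9%, inside peaks in both lists. In the sequence shown above, CGGAC lay just upstream of the peaks, while ACAC, the start of ACACCC at nt 24, was inside. Of all 3′UTR peaks, 0.882% with DMSO and 0.964% with AVJ16 were centred in the first 54 nt of a 3′UTR. Peaks that reach into the coding sequence were counted there, which lowers these shares. They therefore do not show how rare a position this close to a stop codon is.

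The AVJ16 minus DMSO difference at ACTB was −0.54 for the longer peak and −0.32 for the shorter. Only the first passes a limit of 0.5. The study set its limit on differences computed from read counts over 1 cluster and also required an interaction test, so passing it here is not the study's criterion. Of all 14759 DMSO peaks with a partner, 20.1% were lower with AVJ16 by more than 0.5 and 12.6% were higher by as much, and the differences had an SD of 0.556 over these peaks. Both ACTB differences were thus smaller than this SD. The −log10 p was at the limit of 400 for both DMSO peaks and 63.9 for the AVJ16 peak. Among the 663 DMSO peaks at that limit with an AVJ16 partner, the partner was also at the limit for 529 (79.8%) and had 63.9 or less for 33 (4.98%). The 33 include both ACTB peaks, which share the same AVJ16 partner. ACTB has near-identical pseudogenes, and how reads that match several copies were handled is not given in the sources used here.

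ACTG1 encodes γ-actin, the other cytoplasmic actin, whose protein is almost the same. Its 3′UTR of 719 nt held 7 DMSO and 8 AVJ16 peaks, and the 7 DMSO peaks lay between nt 477 and 702 after the stop codon. With AVJ16, 7 peaks lay between nt 422 and 695, and 1 peak at nt 75 to 116 was just past the threshold at 3.03. The positions thus differed from those of ACTB, with no ACTG1 peak in the first 54 nt. The highest log2 fold enrichment in ACTG1 was 4.43 with DMSO and 4.08 with AVJ16, and the 6 shared peaks had a median difference of −0.23. Of 9 genes of actins and their partners, 6 were bound with DMSO and 4 with AVJ16. For this and the related groups below, the share over all protein-coding genes was 25.8% with DMSO and 23.2% with AVJ16. ACTR2, a subunit of the Arp2/3 complex, and CFL1, which encodes the actin-severing protein cofilin, had 1 and 2 DMSO peaks of at most 3.10 and 3.11 and no AVJ16 peak. ARPC2, a further Arp2/3 subunit, had 6 DMSO peaks, 4 of them in the coding sequence, and 1 AVJ16 peak, which was higher than its DMSO partner by 1.08.

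**Figure D2:**
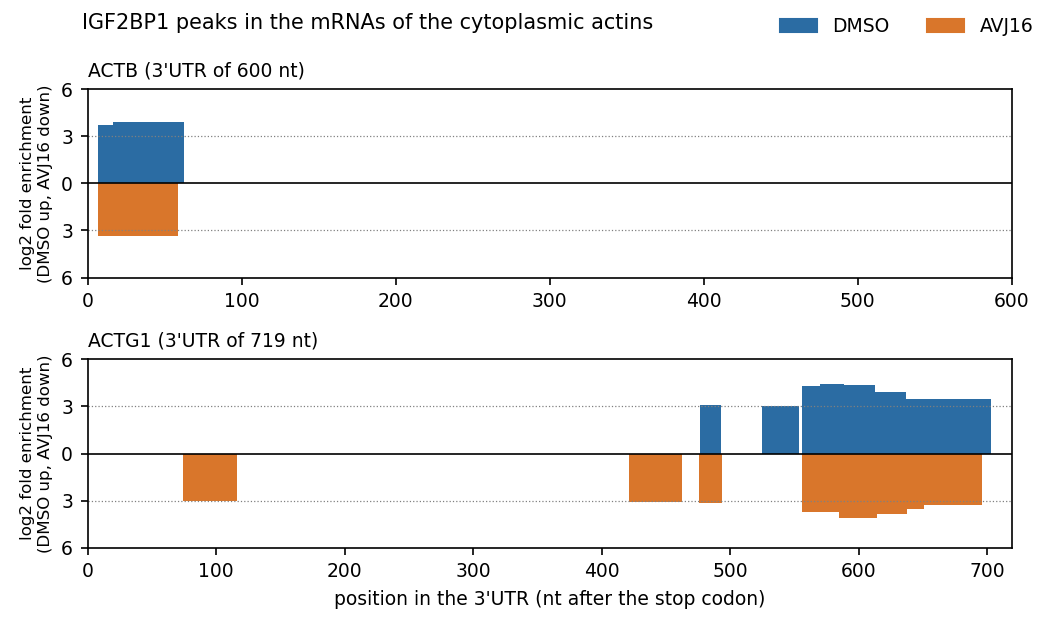
Peaks in the 3′UTR of ACTB and ACTG1, with nt after the stop codon on the x axis and log2 fold enrichment on the y axis (DMSO upwards in blue, AVJ16 downwards in orange, dotted lines at 3). ACTB peaks stand between nt 7 and 62, whereas the ACTG1 peaks stand beyond nt 422 except for 1 AVJ16 peak at nt 75 to 116.

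MYC encodes a transcription factor of growth and proliferation. Its 4 DMSO peaks lay between nt 53 and 346 of a 3′UTR of 1993 nt. The strongest, chr8:127741073-127741135 on the plus strand, was enriched by 4.83 on the log2 scale at a −log10 p of 28.1, and its AVJ16 partner, chr8:127741075-127741139, had 4.95 and 27.4. Both values of this peak were almost alike in the lists, with a difference of 0.12 in log2 fold enrichment. It was the highest of all peaks of these 8 mRNAs in each list, and 86.1% of bound coding genes with DMSO and 90.3% with AVJ16 had a best peak no higher. The other 3 DMSO peaks, at 3.65, 3.86 and 3.56, had no partner in the AVJ16 list. The peak at 3.65 was directly upstream of the strongest one and had a −log10 p of 22.5, while the further peaks had 8.48 and 9.61. The listed binding covered 173 nt of the MYC 3′UTR with DMSO and 65 nt with AVJ16, in both cases with the same strongest site.

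The coding region determinant of MYC, taken as the last 83 codons (249 nt, chr8:127740707-127740955), had no peak in either list. The nearest peak began 55 nt downstream of it with DMSO and 119 nt with AVJ16. Widening the region by 50 nt on each side could add no peak, since this margin is smaller than both distances. The GGACU at nt 151 lay within the strongest peak of both lists. Of the related MYC network, 5 of 8 genes were bound in each list. MYCN and MYCL, the paralogs, had no peak. MLX, a partner of the MondoA and ChREBP factors, had the most peaks of the network with 5 and 7, and MXI1, an antagonist of MYC, had 4 and 5. At 1 shared peak each, MLX was higher with AVJ16 by 0.61 and MXI1 by 0.80. None of the 10 shared peaks of this network was lower by more than 0.5. Over all shared peaks, 12.6% were higher and 20.1% lower by as much.

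BTRC encodes β-TrCP1, the F-box protein that brings phosphorylated β-catenin and IκB to the SCF ubiquitin ligase. It had 2 DMSO peaks, both close to the stop codon of a 3′UTR of 4190 nt. The first, chr10:101553154-101553216, at nt 32 to 93, reached 3.69 in log2 fold enrichment, and its AVJ16 partner, chr10:101553166-101553191, had 3.61. The DMSO peak begins 1 nt before the last exon. The other DMSO peak, chr10:101553262-101553298, at nt 139 to 175, had 4.08 and no AVJ16 partner. The shared site thus had nearly the same enrichment in both lists, and the stronger of the DMSO sites was listed with DMSO only. At the shared site the AVJ16 peak spans 26 nt and the DMSO peak 63 nt. This pair does not meet a required overlap of 50% of both peaks. All of these peaks had a small −log10 p, from 5.14 to 5.66. Of the DMSO peaks, 14.7% had a value no higher than that of the first BTRC peak, and of the AVJ16 peaks, 10.8% had one no higher than its partner's. No peak lay in the coding sequence of BTRC.

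FBXW11, the paralog β-TrCP2, had more and stronger 3′UTR peaks, 9 with DMSO and 8 with AVJ16. The highest reached 5.48 with DMSO and 4.56 with AVJ16 in log2 fold enrichment. Its 7 shared peaks had a median difference of −0.34 but ranged from −1.45 to 1.51, so sites of this 1 mRNA differed in both directions. Of the 6 SCF genes in this group, 4 were bound in each list. SKP2, the F-box protein that targets the inhibitor p27, had 7 DMSO and 4 AVJ16 peaks, and its 3 shared peaks had a median difference of −1.10.

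MKI67 encodes Ki-67, the surfactant of mitotic chromosomes that serves as a proliferation marker. It was the bound mRNA of this group with more peaks in the AVJ16 list, 7 next to 4 with DMSO. Most of this excess came from peaks that touch, since joining these left 4 AVJ16 sites and 3 DMSO sites. The DMSO peaks at nt 2073 to 2135, 2153 to 2211 and 2212 to 2308 of the 2531 nt 3′UTR had log2 fold enrichments of 4.04, 3.66 and 3.04, and their AVJ16 partners had 4.27, 3.85 and 3.32. These differences were 0.23, 0.20 and 0.27, all in the same direction and below 0.5. The DMSO peak at nt 1221 to 1272, chr10:128097918-128097969, had 3.07, and its AVJ16 partner, chr10:128097907-128097958, had 3.94. The difference of 0.87 was the largest of any peak in these 8 mRNAs, and 95% of all shared peaks differed by less than 0.83 in that direction. At this site the −log10 p was 9.03 in the DMSO list and 17.5 in the AVJ16 list.

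The AVJ16 list also held a peak of 4.55 at nt 2118 to 2150, which reached into a gap between DMSO peaks and was paired with the DMSO peak at nt 2073 to 2135. A further AVJ16 peak at nt 703 to 761, chr10:128098429-128098487, had 3.69 and no DMSO partner. Seen from the DMSO list, 4 of 4 shared peaks of MKI67 were higher with AVJ16, and seen from the AVJ16 list, 6 of 6. Over all shared peaks 44.8% were higher, and among the 320 genes with exactly 4 shared peaks, as in MKI67, 22 (6.88%) were higher at every one. Neighbouring peaks of one mRNA share libraries and can share reads at their edges, so they are not independent measurements. The joined AVJ16 sites covered 340 nt of the MKI67 3′UTR, next to 271 nt with DMSO. The covered RNA was rich in C, at 37.3% with DMSO and 37.1% with AVJ16, compared with 23.2% and 23.7% over all 3′UTR peaks. U was below all 3′UTR peaks, at 27.3% and 26.2% next to 31.6% and 30.6%. C and U together made up 64.6% and 63.2%, compared with 54.7% and 54.3%. Single stretches, such as the peak with the largest difference shown above, need not follow this. Of 8 further proliferation genes, 3 were bound with DMSO and 2 with AVJ16, among them AURKA, a mitotic kinase, with 4 and 2 peaks, and TOP2A, the topoisomerase of mitotic chromosomes, with 1 and 5. At AURKA the 3 shared peaks differed by −0.95 to 0.51.

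SRF encodes the serum response factor, which drives actin and immediate early genes. It had 2 DMSO peaks and 1 AVJ16 peak and was the bound mRNA without a shared peak. The DMSO peak at nt 65 to 148 (chr6:43179255-43179338) had 3.10 in log2 fold enrichment, and the other, further downstream, had 3.76. The AVJ16 peak was at nt 335 to 401 (chr6:43179525-43179591), with 3.20. The peaks of the lists thus lay apart but within the same stretch of the 2316 nt 3′UTR, and 2 of the 3 were near the threshold. The best AVJ16 peak of 9.94% of bound coding genes was no higher than that of SRF, and with DMSO this was 40.5%. In all, 79.1% of genes bound with DMSO were also bound with AVJ16, and of the genes bound in both, 90.5% had a shared peak.

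The SRF partners and targets were bound in 6 of 9 cases in each list. MRTFB, an actin-sensing coactivator of SRF, had 7 peaks with DMSO and 5 with AVJ16, and MRTFA had none. VCL, which encodes vinculin of focal adhesions, had 28 and 33 peaks. Of its 28 shared peaks, 3 were lower and 1 was higher by more than 0.5, next to 20.1% and 12.6% of all shared peaks. FOXK1, named in earlier work next to SRF as a target, had 8 and 4 peaks. At 1 of its 3 shared peaks it was higher by 1.02, and at none was it lower by more than 0.5. PDLIM7 and TAGLN, the other unbound genes of this group, had no peak in either list.

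**Figure D3:**
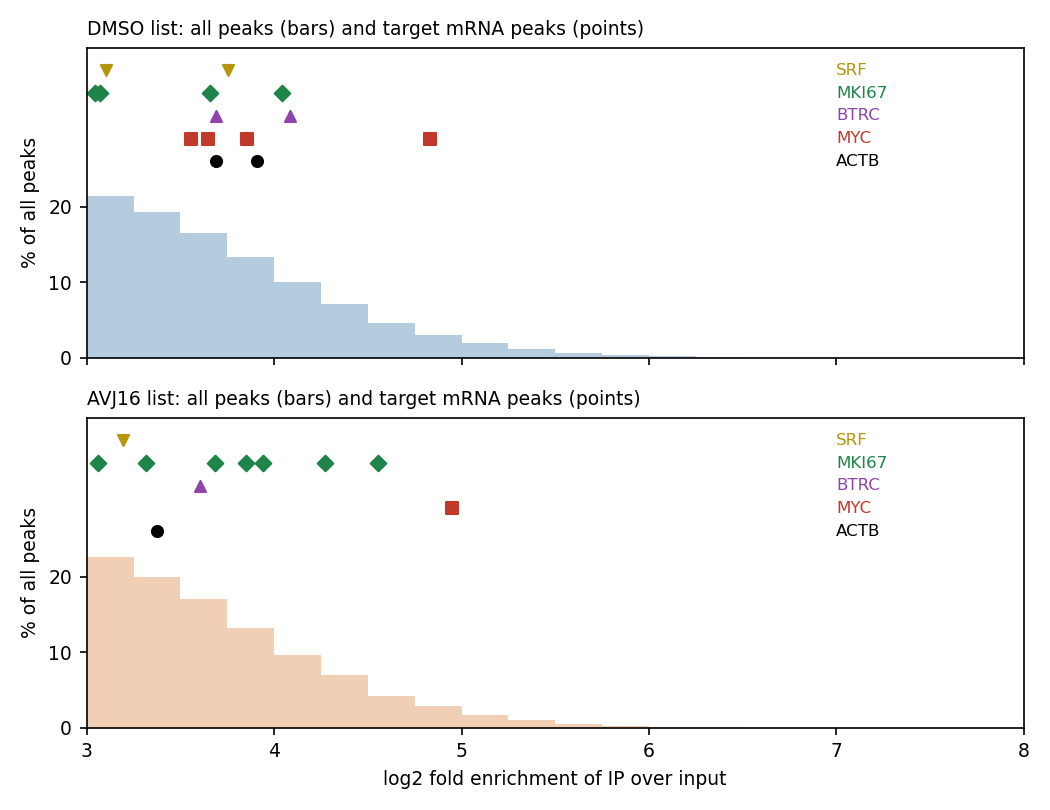
Log2 fold enrichment on the x axis of all peaks (bars, % of all peaks of that list on the y axis) and of the peaks of the 5 bound mRNAs (points, 1 row per gene). The MYC peak at 4.83 with DMSO and 4.95 with AVJ16 stands furthest to the right, and most of the other points lie between 3 and 4.

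E2F1, a transcription factor of S phase entry, BCL2, the inhibitor of apoptosis, and GLI1, the transcription factor of Hedgehog signalling, had no peak anywhere in the gene. Their annotated 3′UTRs are of 1255, 5279 and 207 nt, and that of BCL2, the longest of all 8, held no listed site. The E2F1 and BCL2 3′UTRs each hold 1 GGACU and that of GLI1 holds none. All of them had bound paralogs. Among the other E2F genes, E2F3, E2F4, E2F5, E2F6 and E2F7 had 2 or 3 DMSO peaks and 1 to 3 AVJ16 peaks, E2F8 had 1 AVJ16 peak and E2F2 had none. E2F7, a repressor, had a shared peak with a difference of −0.57, and E2F5 differed by −0.66 to 0.83 at its 3 shared peaks. Of the 12 E2F and RB genes, 9 were bound with DMSO and 10 with AVJ16. Of their 17 shared peaks, 6 were lower and 1 was higher by more than 0.5, next to 20.1% and 12.6% of all shared peaks.

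In the BCL2 family, 6 of 12 genes were bound with DMSO and 5 with AVJ16. MCL1, a further survival factor, had 4 DMSO peaks and 1 AVJ16 peak, with a difference of 0.16 where they overlapped. BCL2L1, which encodes BCL-XL, had 1 and 2 peaks with a difference of 0.39. BCL2L11, which encodes the killer protein BIM, had 4 in each list, with differences from −1.22 to 0.72. Of 8 Hedgehog genes, 5 were bound in each list. GLI3, a paralog that is mainly a repressor, had 16 peaks in each list, 10 of them in the coding sequence, with a highest log2 fold enrichment of 5.64 and 5.28. GLI2 had 1 intronic DMSO peak.

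Of the 14 DMSO peaks, 8 (57.1%, 95% Wilson interval 32.6 to 78.6) had an AVJ16 partner, next to 66.2% of all DMSO peaks and 70.5% of those in 3′UTRs. From the AVJ16 side it was 9 of 11 (81.8%, 52.3 to 94.9), next to 70.8% of all AVJ16 peaks and 75.2% of those in 3′UTRs. These intervals cover counting error only and treat peaks of 1 gene as separate. All 6 DMSO peaks without a partner were in MYC, BTRC and SRF. In the whole list, a partner was found for 53.2% of 3′UTR DMSO peaks with a log2 fold enrichment from 3 to 3.5, for 72.8% from 3.5 to 4 and for 87.3% above. In these 8 mRNAs the counts in the same ranges were 2 of 3, 4 of 8 and 2 of 3.

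At the 8 shared peaks the median difference between AVJ16 and DMSO was 0.16, next to −0.06 over all shared peaks, and 5 were higher and 3 lower with AVJ16. By more than 0.5, 1 was higher (MKI67) and 1 lower (ACTB). By gene, the values lay apart, with both ACTB values below 0, all 4 MKI67 values above, and MYC at 0.12 and BTRC at −0.08 close to 0. With no replicate values, whether any of these differences exceeds the spread between replicates was not testable.

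**Figure D4:**
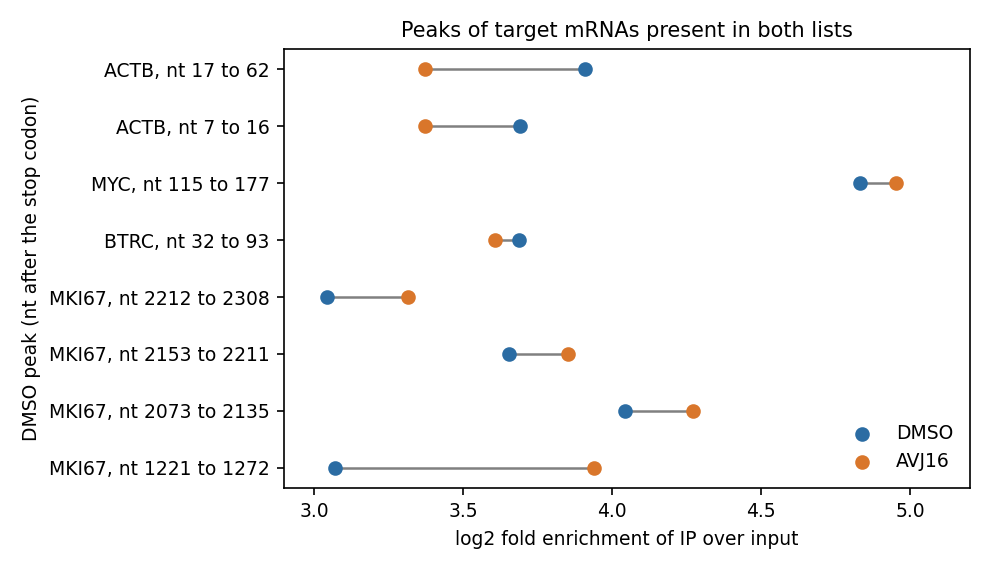
Log2 fold enrichment on the x axis of the 8 DMSO peaks with an AVJ16 partner (blue, DMSO, and orange, AVJ16, joined by a line), named on the y axis by gene and nt after the stop codon. Both ACTB peaks are lower with AVJ16, all 4 MKI67 peaks are higher, and MYC and BTRC hardly differ. Both ACTB lines end at the same AVJ16 peak.

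Sequence elements known from these targets were searched in 101 nt windows around the peak centres, on the transcript strand. GGACU was in 5 of 14 DMSO windows (ACTB, MYC, BTRC and SRF) and in 2 of 11 AVJ16 windows (ACTB and MYC), next to 8.01% and 7.82% of all windows. Wholly inside a peak it lay only at MYC, in both lists, and at SRF with DMSO. In the ACTB and BTRC windows it was not wholly inside a peak. ACACCC was found at ACTB alone among these genes, and in 2.28% and 2.30% of all windows. The spaced pair of the zipcode, which is CGGAC and, after 10 to 25 nt, C or A followed by CA and then C or U, was also found in the ACTB windows alone, and in 0.314% and 0.375% of all windows. At ACTB the spacing is 17 nt. The spaced pair was defined from the zipcode, and ACACCC also lies in it. Since the ACTB peaks cover most of the zipcode, these matches at ACTB were built into the choice of elements. The pair also occurs in the MYC and MKI67 transcripts, 2 and 3 times, but outside the 3′UTR, where these genes had no peak. CAUH was in 10 of 14 and 9 of 11 windows, next to 77.7% and 78.1%, which are shares close to each other. In windows of 25 nt on each side of the centre they were not close with DMSO, where 4 of 14 windows held CAUH next to 53.4% of all. The windows of neighbouring peaks overlap, and ACTB counts as 2 windows with DMSO. A match is a description of the letters and no evidence of contact.

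Of 16 further genes that earlier studies list as targets, 11 were bound in each list. Over all protein-coding genes the share was 25.8% with DMSO and 23.2% with AVJ16. IGF2, H19, MAPK4, ABCB1 and MITF had no peak. The most peaks were in IGF1R, the receptor of insulin-like growth factors, with 41 and 40, HMGA2, a chromatin protein of fetal cells, with 33 and 37, and PABPC1, the poly(A)-binding protein, with 30 and 40. All PABPC1 peaks were in the coding sequence, where none of the 8 mRNAs had any. Of the 163 shared peaks of the 16 genes, 18 were higher and 24 lower by more than 0.5. Over all shared peaks, 12.6% were higher and 20.1% lower by as much, to be set beside each count that follows. HMGA2 was higher at 2 and lower at 5 of 31, and PEG10, a gene of retroviral origin, was higher at 3 and lower at 4 of 12. CDK6, the cyclin D kinase, was lower by more than 0.5 at 10 of 23 shared peaks and higher at none, and LIN28B, which blocks let-7, was lower at 3 of 7 and higher at none. CD44, the hyaluronan receptor, was higher at 4 of 14 and lower at none, and IGF1R was higher at 7 of 40 and lower at none.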

How the data were processed

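The 8 eCLIP libraries of H1299 cells entered as 1 list of peaks per treatment. The authors removed adapters and reads from repeats, used STAR for mapping, collapsed PCR duplicates and ran CLIPper. They deposited for each peak the −log10 p-value and the log2 fold enrichment of IP over the paired input, on hg38 per the labels. The Methods name Gencode v19, but the coordinates fit GRCh38, and lists were merged by IDR per the labels. Tool versions are not given in the sources used here. Each list was normalized to its own inputs.

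Peaks were assigned to GENCODE release 44 genes on the same strand (at least 1 nt), with regions ranked as coding sequence, 3′UTR, 5′UTR, noncoding exon and intron. Positions are on the canonical transcript. The partner of a DMSO peak was the AVJ16 peak of longest overlap, and the log2 values were subtracted. No test was made, since the lists hold no replicates. Used were bedtools 2.31.1, pysam 0.24.0, pandas 2.3.3 and numpy 2.4.6 with Python 3.11.15, scipy 1.17.1 and matplotlib 3.10.9, and assignment, pairing and search were tested on simulated data. The alternatives were other thresholds, overlaps, pairings, limits, region orders and windows. The 8 genes, the 9 related lists and all comparisons were chosen with earlier results of these data known. Named beside the 8 genes are, of each related list, genes with the most peaks, with a shared peak beyond 0.5, or paralogous to them, and not all are reported. MRTFA, PDLIM7, TAGLN, ACTR2, CFL1, IGF2, H19, MAPK4, ABCB1 and MITF are outside this rule, picked with their values in view. The sequence and position of 1 SRF peak are not reported here.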

Additional observations from a re-analysis of the deposited data

How the results depend on the processing

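No paired analysis was possible because no list gives values of single replicates, and for the same reason no replicate was left out. At 4 or more in log2 fold enrichment, MYC, BTRC and MKI67 had a peak with DMSO, or 3 of the 8 genes. With AVJ16 it was 2, MYC and MKI67. Each list held 3 such peaks, and 2 of 3 DMSO peaks and 3 of 3 AVJ16 peaks had a partner. In the whole list, 87.3% of 3′UTR DMSO peaks at this enrichment had one. The shares over all genes and over all AVJ16 peaks at this threshold are not given here. When pairs started from the AVJ16 peaks, 2 peaks were higher by more than 0.5, both in MKI67. After centring on the median over all shared peaks, 0 were lower by more than 0.5, the ACTB difference becoming −0.48. With a limit of 1, 0 were higher and 0 were lower. In windows of 25 nt on each side of the centre, GGACU was in 2 DMSO and 1 AVJ16 windows of these mRNAs, next to 4.01% and 3.91% of all windows. The spaced pair was in 1 and 0, next to 0.117% and 0.136%. With 100 nt GGACU was in 8 and 3, next to 15.2% and 15.0%, so the share over all windows also rose with window length. CAUH was in 4 DMSO and 6 AVJ16 windows with 25 nt, next to 53.4% of all windows in each list. Joining peaks that touch left 1 ACTB site in each list and 3 DMSO and 4 AVJ16 sites in MKI67. When an overlap of at least 50% of both peaks was required, 6 of 14 DMSO peaks and 6 of 11 AVJ16 peaks had a partner. The shares over all peaks under this stricter rule are not given here, so these counts are a description only. BTRC then had no shared peak. No direction at a gene with a shared peak was reversed under these alternatives. The region, the zipcode and the coding region determinant gave the same counts under other region orders and with 50 nt added on each side. For the determinant this says little, since its nearest DMSO peak lay 55 nt away, just past the margin. The precision of all values is limited by the unknown depth and by the absence of replicate values.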
